A study of Oryctolagus cuniculus with 134 samples.

Results

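Genes of the interferon response and of JAK-STAT signaling were followed in rabbit aorta and heart valves by RNA sequencing. They were chosen by their symbols, and 35 of the 29587 annotated genes are described: 4 interferon ligands, 4 receptor chains, 3 kinases, 5 STAT transcription factors, 5 interferon regulatory factors (IRFs), 13 interferon-induced target genes and ISG20L2. This last gene, an exonuclease, was included through its symbol and is not counted among the targets. Several well-known members (IFNAR2, JAK3, STAT2, IRF1, IRF3, IRF9, MX1, MX2, USP18, IFIT1 and the IFITM family among them) were not analysed here. The 134 libraries came from 27 male New Zealand White rabbits whose protocol began at 12 weeks of age and lasted 16 weeks. Ctrl rabbits ate chow. CHT rabbits ate a diet with 0.3% cholesterol and were given vitamin D2, 25000 U daily over 15 days, and Lard rabbits ate a diet with 5% lard with the same vitamin D2. IR/CHT rabbits had the CHT diet and vitamin D2, and in addition X-rays to the heart, 24 Gy in 3 fractions of 8 Gy, after 8 weeks. The paper describes its cardiac irradiation as aimed at the thoracic aorta and the aortic valve. The dose that reached each tissue was not analysed here. Each tissue had 7 Ctrl, 6 CHT, 7 Lard and 7 IR/CHT libraries, except for 6 Ctrl libraries of the mitral valve. No group on chow with vitamin D2 and none with irradiation alone was analysed here, so diet and vitamin D2 cannot be told apart, and IR/CHT against CHT measures irradiation only on top of that diet.

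Interferons bind paired receptor chains (IFNAR for type I, IFNGR for type II, IFNLR for type III), whose kinases JAK1, JAK2 and TYK2 phosphorylate STAT proteins. Activated STATs then enter the nucleus and, together with IRFs, switch on a large set of antiviral and antigen-presenting genes. In arteries and valves these genes are known from macrophages and other leukocytes as well as from endothelial and stromal cells, and interferon signaling is a recognised part of atherosclerotic inflammation.

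The libraries held 13564979 to 50577676 read pairs on genes (median 18235577). By these totals, 1 CPM (the count scaled to library size) stood for at least 13.6 read pairs. The levels given here rest on TMM-scaled library sizes, so this minimum is approximate for them. Plate 2 held every aorta library, plate 1 every CHT library of the aortic valve and of the mitral valve, and both plates held the other valve groups. Over 11631 genes, libraries correlated with the rest of their own group with a median r of 0.973, but 15 of 134 correlated most with a group of another tissue, 6 of them by more than 0.015. These 6 were the tricuspid valve libraries L168 (Ctrl), L197 (IR/CHT) and L272 (Lard), the pulmonary valve libraries L275 (IR/CHT) and L271 (Lard) and the aortic valve library L232 (Lard). Each was kept under its label, and results of these valves are also given without them. Summed smooth muscle markers (4 genes) reached 81338 to 114981 (median 101364) CPM in Ctrl aorta. They were at 31402 to 80872 (median 55102) on CHT and 11343 to 60666 (median 30960.2) on IR/CHT, and at most 2664 in valve libraries other than the pulmonary IR/CHT library L176 (19540.2 CPM). Heart muscle markers (7 genes) were present in all tissues and highest in the tricuspid valve (up to 40158 CPM), so valve samples held varying amounts of heart muscle RNA. Among read pairs of the 11916 genes with a known length, the share in genes shorter than 10000 bases ranged from 8.44% to 14.8%. It was taken as a rough sign of RNA and library quality. Its link to quality was not tested, and cell make-up may also move it.

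The ligands themselves were at the edge of detection. IFNB1 had 1 read pair in all 134 libraries together, IFNG 9, IFNK 21 and IFNE 46, with at most 5 in any library, so none of the 4 could be tested. A count of 0 in a library allows up to 3 read pairs, and a ligand made briefly or by few cells was not detectable at this depth. Type I interferon genes other than IFNB1, IFNE and IFNK were not analysed here. The antiviral exonuclease ISG20 was tested only in the mitral valve, and the type III receptor chain IFNLR1 only in the aortic and mitral valves. In all, 29 of the 35 genes passed the filter on low counts in aorta, pulmonary and tricuspid valve, 30 in the aortic and 31 in the mitral valve. ISG20 stayed at 3 or fewer read pairs per library on every treatment in the pulmonary valve.

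In the aorta, the CHT diet went with higher expression of most of the pathway below its ligands and kinases. Of the 29 genes tested, 20 (69.0%) rose against Ctrl and 0 fell, whereas 19.4% of all 14777 genes were called, 14.2% as higher. Calls rested on edgeR's quasi-likelihood test, with a fold change over 1.5 and a p-value under 0.05 after Benjamini-Hochberg adjustment over all genes tested. The median log2 fold change of the 29 genes was 1.79, and that of all genes tested was -0.04. By role, the calls covered 3 of 3 receptor chains, 0 of 3 kinases, 2 of 5 STATs, 4 of 5 IRFs and 11 of 12 targets. These are whole-tissue libraries, in which more cells of a type and more RNA per cell cannot be told apart.

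All 3 receptor chains tested rose in the CHT aorta (log2 fold changes ± SE below). IFNAR1, a chain of the type I receptor, ranged from 32.4 to 46.2 CPM on Ctrl (median 39.9), from 61.7 to 149.0 on CHT (median 80.4), from 41.5 to 56.5 on Lard (median 46.4) and from 67.0 to 121.9 on IR/CHT (median 101.6). Its Ctrl and CHT libraries did not overlap (1.20 ± 0.16, adjusted p = 2.8e-06). IFNGR2, the signaling chain of the type II receptor, ranged from 4.72 to 10.1 CPM on Ctrl (median 7.68), from 19.4 to 44.7 on CHT (median 27.4), from 6.84 to 17.7 on Lard (median 10.6) and from 22.1 to 53.5 on IR/CHT (median 38.7). Every CHT library lay above every Ctrl library, and the change was 2.03 ± 0.24, adjusted p = 3.4e-07. IFNGR1, the ligand-binding chain, rose less (0.86 ± 0.14, adjusted p = 4.4e-05), again without overlap. None of the kinases was called. JAK1 changed by 0.15 ± 0.08, adjusted p = 0.175, JAK2 by 0.08 ± 0.12, adjusted p = 0.667 and TYK2 by -0.30 ± 0.43, adjusted p = 0.647, and none of the 3 was called in any comparison of treatments within a tissue.

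Among the transcription factors, STAT4, which is best known from lymphocytes and myeloid cells, rose by 1.79 ± 0.45, adjusted p = 0.0036, and STAT5A, a mediator of cytokine and growth factor signals, by 0.82 ± 0.24, adjusted p = 0.00961. STAT3 (0.35 ± 0.12, adjusted p = 0.0317) passed the adjusted p but not the fold threshold, and STAT5B and STAT6 were at 0.34 ± 0.13, adjusted p = 0.0442 and 0.35 ± 0.21, adjusted p = 0.22. The IRFs moved over a wider range. IRF5, a myeloid regulator of inflammatory cytokines, ranged from 0 to 1.66 CPM on Ctrl (median 0.904), from 10.6 to 53.1 on CHT (median 27.7), from 0.902 to 17.7 on Lard (median 3.29) and from 25.4 to 146.9 on IR/CHT (median 44.1). This was a 29.3-fold rise (4.87 ± 0.66, adjusted p = 2.7e-06) without overlap of the 2 groups. IRF7, the amplifier of type I interferon production, ranged from 0.0635 to 0.777 CPM on Ctrl (median 0.254), from 0.685 to 25.5 on CHT (median 4.79), from 0.0622 to 2.45 on Lard (median 0.644) and from 4.09 to 63.8 on IR/CHT (median 17.1). It rose by 4.73 ± 0.81, adjusted p = 6.8e-05, with the lowest CHT library inside the Ctrl range. IRF8, a factor of the mononuclear phagocyte lineage, rose by 2.78 ± 0.48, adjusted p = 7.1e-05 and IRF4, known from lymphocytes and some myeloid cells, by 1.74 ± 0.39, adjusted p = 0.00128. IRF2, a constitutive repressor (-0.01 ± 0.10, adjusted p = 0.965), was not called.

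The largest changes were in the targets. OASL, an antiviral member of the oligoadenylate synthetase family, ranged from 0 to 0.32 CPM on Ctrl (median 0.0635), from 2.99 to 41.8 on CHT (median 12.7), from 0.0673 to 1.53 on Lard (median 0.371) and from 10.9 to 44.1 on IR/CHT (median 20.5). Ctrl libraries held 0 to 5 read pairs of it, and the change was 209.1-fold (7.71 ± 0.78, adjusted p = 3.6e-08) without overlap. OAS2, which makes the activator of RNase L, ranged from 0.0640 to 0.952 CPM on Ctrl (median 0.194), from 2.43 to 52.7 on CHT (median 15.3), from 0.606 to 3.46 on Lard (median 0.746) and from 13.7 to 57.2 on IR/CHT (median 30.9). It rose by 5.91 ± 0.65, adjusted p = 1.4e-07, again without overlap. RSAD2, the radical SAM enzyme viperin that blocks viral RNA synthesis, ranged from 0 to 0.707 CPM on Ctrl (median 0.192), from 2.24 to 36.7 on CHT (median 9.55), from 0.0530 to 1.51 on Lard (median 0.477) and from 6.52 to 20.2 on IR/CHT (median 14.0). The change was 5.38 ± 0.73, adjusted p = 3.1e-06, and library L559 was well above the other 5 CHT libraries. GBP1, an interferon-gamma-induced GTPase, ranged from 0.252 to 5.25 CPM on Ctrl (median 1.72), from 8.40 to 82.8 on CHT (median 34.9), from 1.68 to 7.41 on Lard (median 4.31) and from 17.5 to 48.5 on IR/CHT (median 26.6). Its change was 4.17 ± 0.58, adjusted p = 3.8e-06, and the groups did not overlap. IFIT3, an adaptor of the antiviral IFIT complex, ranged from 5.35 to 18.1 CPM on Ctrl (median 11.6), from 15.7 to 208.7 on CHT (median 55.0), from 8.34 to 14.9 on Lard (median 11.3) and from 45.1 to 139.7 on IR/CHT (median 74.6) and rose by 2.72 ± 0.42, adjusted p = 1.5e-05. ISG15, a ubiquitin-like modifier, ranged from 2.13 to 4.73 CPM on Ctrl (median 2.92), from 3.30 to 56.4 on CHT (median 13.2), from 2.14 to 6.78 on Lard (median 3.66) and from 9.75 to 29.1 on IR/CHT (median 20.4) and rose by 2.64 ± 0.44, adjusted p = 4.4e-05. In both genes the lowest CHT library lay within the Ctrl range. OAS1, OAS3, IFI44 and IFI44L rose by 2.48, 2.33, 2.55 and 2.45 on the log2 scale, and IFIH1, the cytosolic RNA sensor MDA5, by 0.65 ± 0.18, adjusted p = 0.00771. IFIT2 was the target that was tested and not called (0.44 ± 0.31, adjusted p = 0.298). How read pairs shared by near-identical genes were counted is not given in the sources used here, so the split between members of the OAS and GBP families is uncertain.

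**Figure D1:**
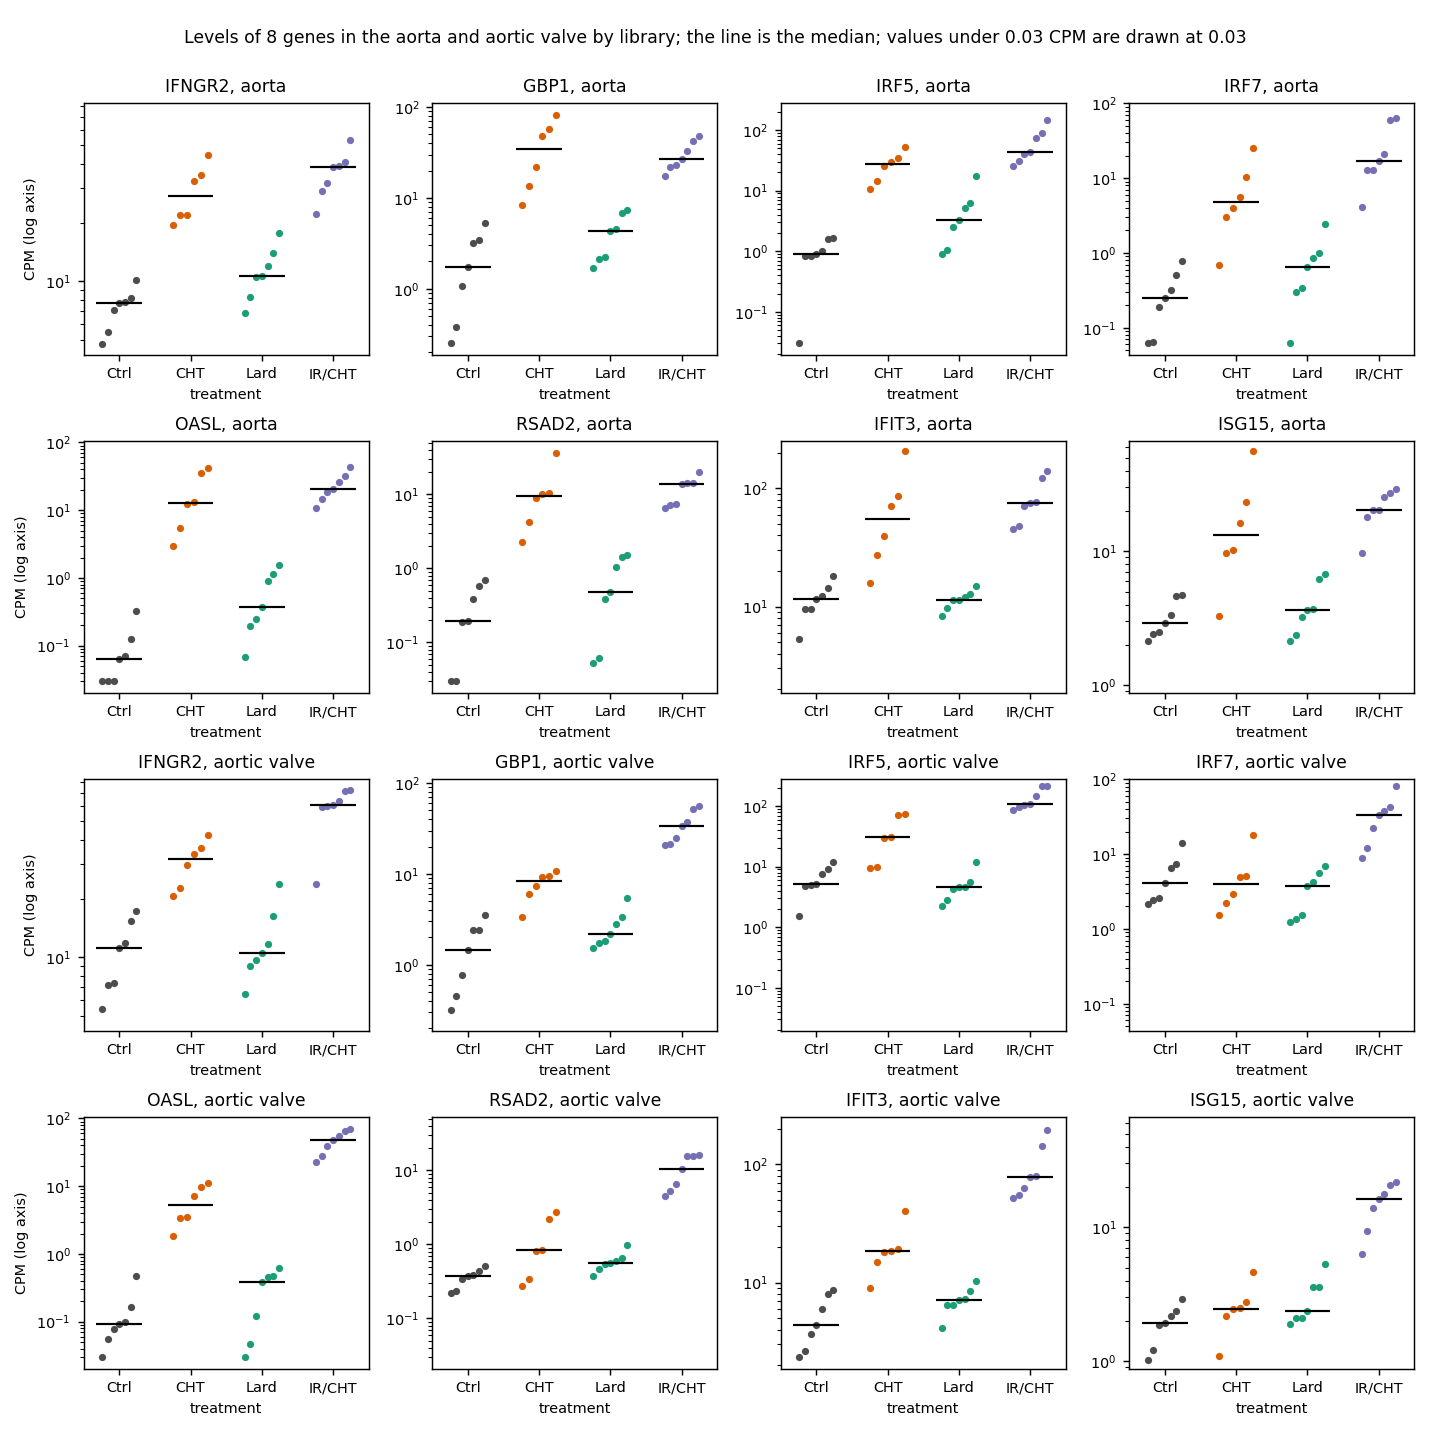
Levels in CPM (log axis) of 8 genes in each library of the aorta (upper 8 panels) and the aortic valve (lower 8 panels), by treatment; points are libraries, lines are medians, and values under 0.03 CPM are drawn at 0.03. OASL rises from a median of 0.0635 CPM on Ctrl to 12.7 on CHT and 20.5 on IR/CHT in the aorta, and from 0.0940 to 5.33 and 47.2 in the aortic valve, while the Lard medians are 0.371 and 0.387.

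On Lard, 1 of 29 genes was called in the aorta, beside 2.61% of all genes (2.57% as higher). This was IRF5 (2.45 ± 0.63, adjusted p = 0.03), whose highest Lard library, L578, stood far above the next (17.7 and 6.20 CPM). The call was lost without any of 7 single libraries (Ctrl L553, L569, L570 and L571, Lard L562, L575 and L578), and DESeq2 called 5 genes. OASL stood at 2.84 ± 0.87, adjusted p = 0.0825 and OAS2 at 1.93 ± 0.66, adjusted p = 0.123, and 10 of the 29 genes had an unadjusted p under 0.05 against 2333 of 14777 in all. IFIT3 (0.00) had nearly equal levels on Lard and Ctrl.

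With irradiation added to the CHT diet, 21 of 29 genes were higher than on Ctrl in the aorta, beside 34.3% of all genes (22.2% as higher). They were the 20 genes called on CHT and STAT6, the mediator of interleukin-4 signals (0.82 ± 0.20, adjusted p = 0.0015). OASL stood at 8.09 ± 0.78, adjusted p = 6.6e-09, IRF7 at 6.50 ± 0.83, adjusted p = 6.5e-07 and GBP1 at 3.85 ± 0.56, adjusted p = 4.2e-06 against the same Ctrl libraries. In the direct comparison of IR/CHT with CHT, edgeR called 0 of 29 genes, beside 0.596% of all genes, and DESeq2 called 1. At an unadjusted p under 0.05, 9 of the 29 differed. This count and the later ones at an unadjusted p are given without the number of all genes at that level. They therefore do not single out these genes. IRF7 was at 1.76 ± 0.66, adjusted p = 0.137, IRF8 at 1.28 ± 0.45, adjusted p = 0.121 and IRF5 at 1.21 ± 0.55, adjusted p = 0.194, whereas RSAD2 (0.00 ± 0.58, adjusted p = 0.996) and GBP1 (-0.32 ± 0.50, adjusted p = 0.718) had differences near 0 or below. The intervals of these differences are wide, and the missed threshold does not show that the groups were alike.

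Macrophage markers moved with these genes. Their summed level (13 of 16 listed genes found, none of them at 0 in all libraries) was 74.1 to 318.0 (median 151.6) CPM in Ctrl aorta, 515.4 to 1366 (median 1159) on CHT, 208.1 to 540.6 (median 416.5) on Lard and 814.8 to 2731 (median 1668) on IR/CHT. In CHT against Ctrl, 11 of 13 macrophage markers rose. T cell markers (7 genes) went from 0.254 to 4.06 (median 1.35) to 8.41 to 12.7 (median 10.9) CPM and B cell markers (6 genes) from 0.762 to 6.22 (median 2.56) to 24.0 to 63.9 (median 47.7), whereas NK cell markers (5 genes) did not pass 1.21 CPM in any aorta library. Only 1 of the 5 T cell markers tested and 1 of the 2 B cell markers tested were called as higher on CHT. Plasmacytoid dendritic cell markers were not analysed here. Endothelial markers (7 genes) summed to 110.5 to 217.0 (median 181.4) CPM on Ctrl, 192.6 to 973.4 (median 571.8) on CHT and 245.5 to 1114 (median 738.5) on IR/CHT, and 6 of 7 rose on CHT. The share of read pairs in short genes was 8.44 to 10.2% on Ctrl, 9.07 to 11% on CHT and 10.2 to 14.5% on IR/CHT. The part of these leukocyte and endothelial markers, of the lower smooth muscle markers and of the short-gene share in the result was not tested.

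On CHT, the aortic valve had higher receptor chains, IRF5 and 5 targets. Of 30 genes tested, 9 rose and 0 fell, beside 11.9% of all 15408 genes (8.42% as higher), and the median log2 fold change was 0.41 against -0.02 for all genes. The 9 were the receptor chains IFNGR2 (1.53 ± 0.30, adjusted p = 0.00065), IFNAR1 (1.11) and IFNGR1 (1.08), IRF5 and the targets OASL, GBP1, IFIT3, RSAD2 and OAS2. OASL ranged from 0 to 0.473 CPM on Ctrl (median 0.0940), from 1.86 to 11.1 on CHT (median 5.33), from 0 to 0.618 on Lard (median 0.387) and from 22.9 to 70.9 on IR/CHT (median 47.2). It rose by 5.36 ± 0.60, adjusted p = 3.4e-07, and no CHT library reached down to the Ctrl range. IRF5 ranged from 1.52 to 11.8 CPM on Ctrl (median 5.22), from 9.61 to 73.6 on CHT (median 30.4), from 2.28 to 12.1 on Lard (median 4.58) and from 85.4 to 218.3 on IR/CHT (median 108.9) and rose by 2.55 ± 0.47, adjusted p = 0.00036, with an overlap. IRF7 (0.07 ± 0.58, adjusted p = 0.941), ISG15 (0.45 ± 0.33, adjusted p = 0.341), IFIT2 (-0.11 ± 0.38, adjusted p = 0.865) and OAS3 (-0.41 ± 0.48, adjusted p = 0.566) were not called. All CHT libraries of this valve were on plate 1, and with plate 1 libraries alone 5 genes were called, with a median of 0.49. With the plate as a covariate the count was 9. Heart muscle markers (7 genes) summed to 172.8 to 11616 (median 756.4) CPM in this valve on Ctrl, 15.2 to 333.9 (median 60.3) on CHT, 21.4 to 232.6 (median 71.9) on Lard and 28.8 to 264.4 (median 62.3) on IR/CHT. Against Ctrl, 6 of 7 fell on CHT, 4 on Lard and 6 on IR/CHT, and 0 of 7 were called in IR/CHT against CHT. Their part in the comparisons with Ctrl was not tested.

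With irradiation on top of the CHT diet, IRFs and targets were higher in the aortic valve than with the diet alone. Against CHT, 17 of 30 genes rose and 0 fell, beside 19.7% of all genes (9.9% as higher), with a median of 1.0 against 0.02. Against Ctrl, 22 rose and 0 fell, beside 42.8% of all genes (21.1% as higher). By role, the 17 were 3 of 4 receptor chains, 0 of 3 kinases, 2 of 5 STATs, 4 of 5 IRFs and 8 of 12 targets.

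RSAD2 ranged from 0.219 to 0.507 CPM on Ctrl (median 0.368), from 0.272 to 2.76 on CHT (median 0.83), from 0.370 to 0.989 on Lard (median 0.554) and from 4.49 to 16.3 on IR/CHT (median 10.5) in this valve. Every IR/CHT library lay above every CHT library, and the difference was 3.13 ± 0.46, adjusted p = 2.7e-05. OASL, given above, differed by 2.92 ± 0.49, adjusted p = 0.00012, also without overlap, and OAS2 by 2.84 ± 0.46, adjusted p = 8.7e-05. ISG15 ranged from 1.03 to 2.89 CPM on Ctrl (median 1.91), from 1.09 to 4.63 on CHT (median 2.46), from 1.91 to 5.36 on Lard (median 2.37) and from 6.32 to 21.9 on IR/CHT (median 16.1). It had not moved past the threshold on CHT and was 5.74-fold higher on IR/CHT than on CHT (2.52 ± 0.34, adjusted p = 1.1e-05). The same held for IRF7, which ranged from 2.16 to 13.9 CPM on Ctrl (median 4.12), from 1.52 to 18.2 on CHT (median 3.99), from 1.23 to 6.91 on Lard (median 3.78) and from 8.78 to 81.6 on IR/CHT (median 33.8). It was higher by 2.53 ± 0.61, adjusted p = 0.00342, with 1 CHT library (L151) at 18.2 CPM within the IR/CHT range. IFIT3 ranged from 2.34 to 8.71 CPM on Ctrl (median 4.34), from 8.95 to 40.5 on CHT (median 18.3), from 4.14 to 10.2 on Lard (median 7.15) and from 52.0 to 195.3 on IR/CHT (median 77.8) and was higher by 2.22 ± 0.37, adjusted p = 0.00012. GBP1 ranged from 0.316 to 3.52 CPM on Ctrl (median 1.46), from 3.38 to 10.7 on CHT (median 8.30), from 1.54 to 5.39 on Lard (median 2.16) and from 21.0 to 56.0 on IR/CHT (median 33.8) and was higher by 2.17 ± 0.43, adjusted p = 0.00063. IFIT2, the partner of IFIT3, was called here (1.69 ± 0.40, adjusted p = 0.00273).

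Receptor chains, STATs and other IRFs differed as well. IFNGR2 ranged from 5.38 to 17.3 CPM on Ctrl (median 11.1), from 20.5 to 42.4 on CHT (median 31.8), from 6.45 to 23.6 on Lard (median 10.5) and from 23.7 to 72.3 on IR/CHT (median 60.3). The change was 0.90 ± 0.30, adjusted p = 0.0289, and 1 IR/CHT library (L194) lay at 23.7 CPM, far below the other 6. IFNGR1 and IFNAR1 were higher by 1.07 ± 0.20, adjusted p = 0.00029 and 0.64 ± 0.21, adjusted p = 0.0271. STAT5A and STAT5B were higher by 1.15 ± 0.27, adjusted p = 0.0027 and 0.70 ± 0.11, adjusted p = 5.8e-05. IRF5, IRF8 and IRF4 were higher by 1.88 ± 0.47, adjusted p = 0.00475, 1.79 ± 0.50, adjusted p = 0.0105 and 1.47 ± 0.33, adjusted p = 0.00198. STAT3 went the other way without reaching the fold threshold (-0.49 ± 0.13, adjusted p = 0.00955), and its IR/CHT and CHT libraries did not overlap. On Lard, 0 of 30 genes were called by edgeR and by DESeq2, beside 0.234% of all genes, and 1 (ISG20L2) had an unadjusted p under 0.05.

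Summed macrophage markers in the aortic valve were 219.9 to 663.5 (median 538.8) CPM on Ctrl, 939.7 to 1381 (median 1242) on CHT, 145.6 to 798.8 (median 271.1) on Lard and 2506 to 3212 (median 3028) on IR/CHT. In IR/CHT against CHT, 9 of 13 rose. T cell markers went from 5.79 to 16.2 (median 10.3) CPM on CHT to 22.6 to 51.8 (median 41.6) on IR/CHT. The share of read pairs in short genes was 10.3 to 12.3% on CHT and 12.3 to 14.8% on IR/CHT. Their part in the result was not tested.

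**Figure D2:**
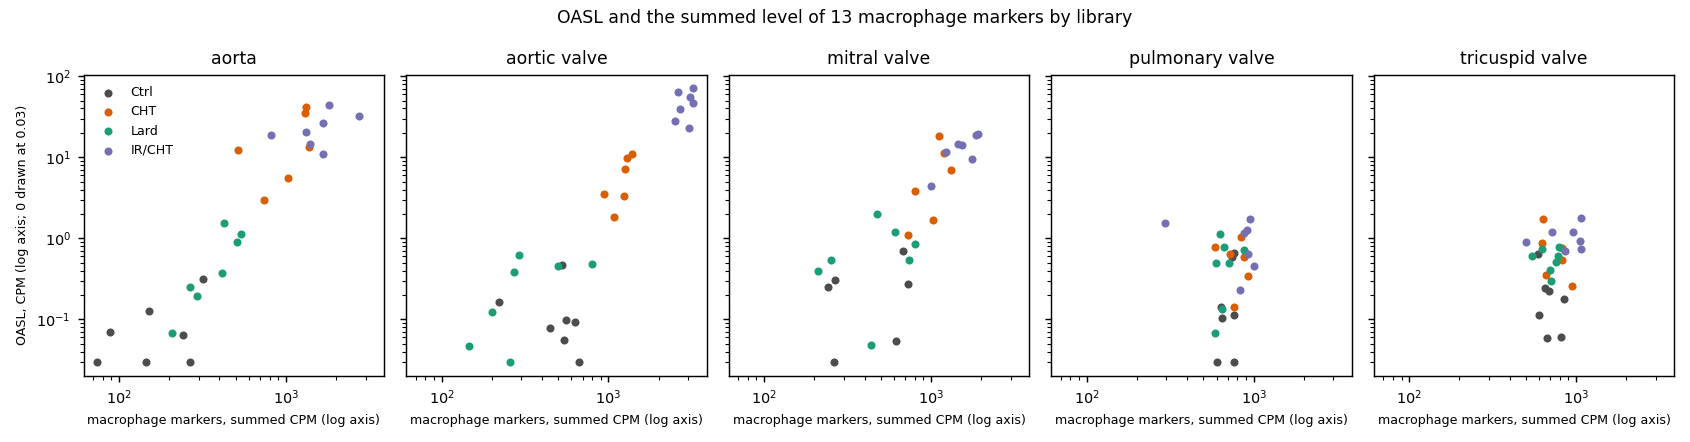
OASL (CPM, log axis, 0 drawn at 0.03) against the summed CPM of 13 macrophage markers (log axis) in each library, 1 panel per tissue, colored by treatment. OASL and the markers are both highest in the IR/CHT aortic valve, at 22.9 to 70.9 and 2506 to 3212 CPM, and OASL stays at or under 1.76 CPM in the pulmonary and tricuspid valves.

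In the mitral valve, the CHT diet went with higher IRF5, IRF8 and 4 targets. Of 31 genes tested, 7 rose and 0 fell, beside 5.62% of all 15322 genes (4.98% as higher), with a median of 0.40 against -0.02. OASL ranged from 0 to 0.703 CPM on Ctrl (median 0.262), from 1.11 to 18.2 on CHT (median 5.38), from 0.0479 to 2.02 on Lard (median 0.544) and from 4.38 to 19.2 on IR/CHT (median 14.3) and rose by 4.72 ± 0.74, adjusted p = 0.0001. IRF5 ranged from 3.08 to 7.63 CPM on Ctrl (median 5.03), from 9.22 to 74.1 on CHT (median 20.1), from 2.78 to 9.31 on Lard (median 3.08) and from 17.5 to 118.5 on IR/CHT (median 55.4) and rose by 2.70 ± 0.48, adjusted p = 0.0005. IRF8, OAS2 and IFNGR1 were up by 2.23, 1.89 and 0.68. IFIT3 ranged from 5.44 to 14.2 CPM on Ctrl (median 8.36), from 9.12 to 86.7 on CHT (median 23.5), from 5.20 to 12.3 on Lard (median 7.81) and from 20.7 to 68.2 on IR/CHT (median 30.9) and rose by 1.81 ± 0.41, adjusted p = 0.00554, and RSAD2 ranged from 0.273 to 1.87 CPM on Ctrl (median 0.490), from 0.579 to 15.0 on CHT (median 1.77), from 0.287 to 0.999 on Lard (median 0.405) and from 1.21 to 11 on IR/CHT (median 3.66) and rose by 2.28 ± 0.69, adjusted p = 0.0456. Both owed their highest CHT value to library L229, which was also far above the others in GBP1 (43.6 CPM against 9.72 in the next library). RSAD2 kept its call in 15 of 26 models that left out 1 library each, and without CHT L245 the count was 11.

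On IR/CHT, 14 of 31 genes rose in the mitral valve, beside 17.7% of all genes (11.1% as higher), with a median of 0.70. The 14 held 3 of 4 receptor chains, STAT5A as the 1 STAT, 4 IRFs and 6 targets. OASL was up by 5.59 ± 0.75, adjusted p = 4.4e-06, IRF5 by 3.62 ± 0.50, adjusted p = 5.5e-06, GBP1 by 2.18 ± 0.57, adjusted p = 0.00596 and ISG15 by 1.66 ± 0.46, adjusted p = 0.00798. GBP1 ranged from 1.18 to 6.56 CPM on Ctrl (median 4.19), from 3.42 to 43.6 on CHT (median 9.06), from 1.56 to 5.13 on Lard (median 2.95) and from 6.87 to 52.0 on IR/CHT (median 10.4). Its highest IR/CHT library, L548, was also the highest in RSAD2 (11 CPM). With plate 1 libraries alone 10 genes were called, and with plate 2 libraries alone 7. IR/CHT against CHT gave 0 calls by edgeR and by DESeq2, beside 0.189% of all genes, with 5 genes at an unadjusted p under 0.05. Lard against Ctrl gave 0 by both tools, beside 0%, with OASL at an unadjusted p under 0.05 (1.57 on the log2 scale). Macrophage markers summed to 241.3 to 726.2 (median 442.1) CPM on Ctrl, 724.5 to 1309.6 (median 1073) on CHT and 999.9 to 1905 (median 1535) on IR/CHT. Of the 13, 10 rose on CHT and 11 on IR/CHT. T cell markers went from 0.707 to 2.58 (median 1.38) CPM on Ctrl to 2.61 to 13.8 (median 8.08) on CHT and 7.03 to 25.4 (median 22.3) on IR/CHT, and 2 and 3 of the 5 tested rose. B cell markers went from 1.85 to 8.09 (median 2.86) to 8.16 to 45.3 (median 15.8) and 18.9 to 66.4 (median 44.8) CPM, with 1 of 3 tested called on each. The share of read pairs in short genes was 9.94 to 11% on Ctrl, 10.5 to 12.6% on CHT and 11.2 to 14.6% on IR/CHT. Their part in the result was not tested.

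**Figure D3:**
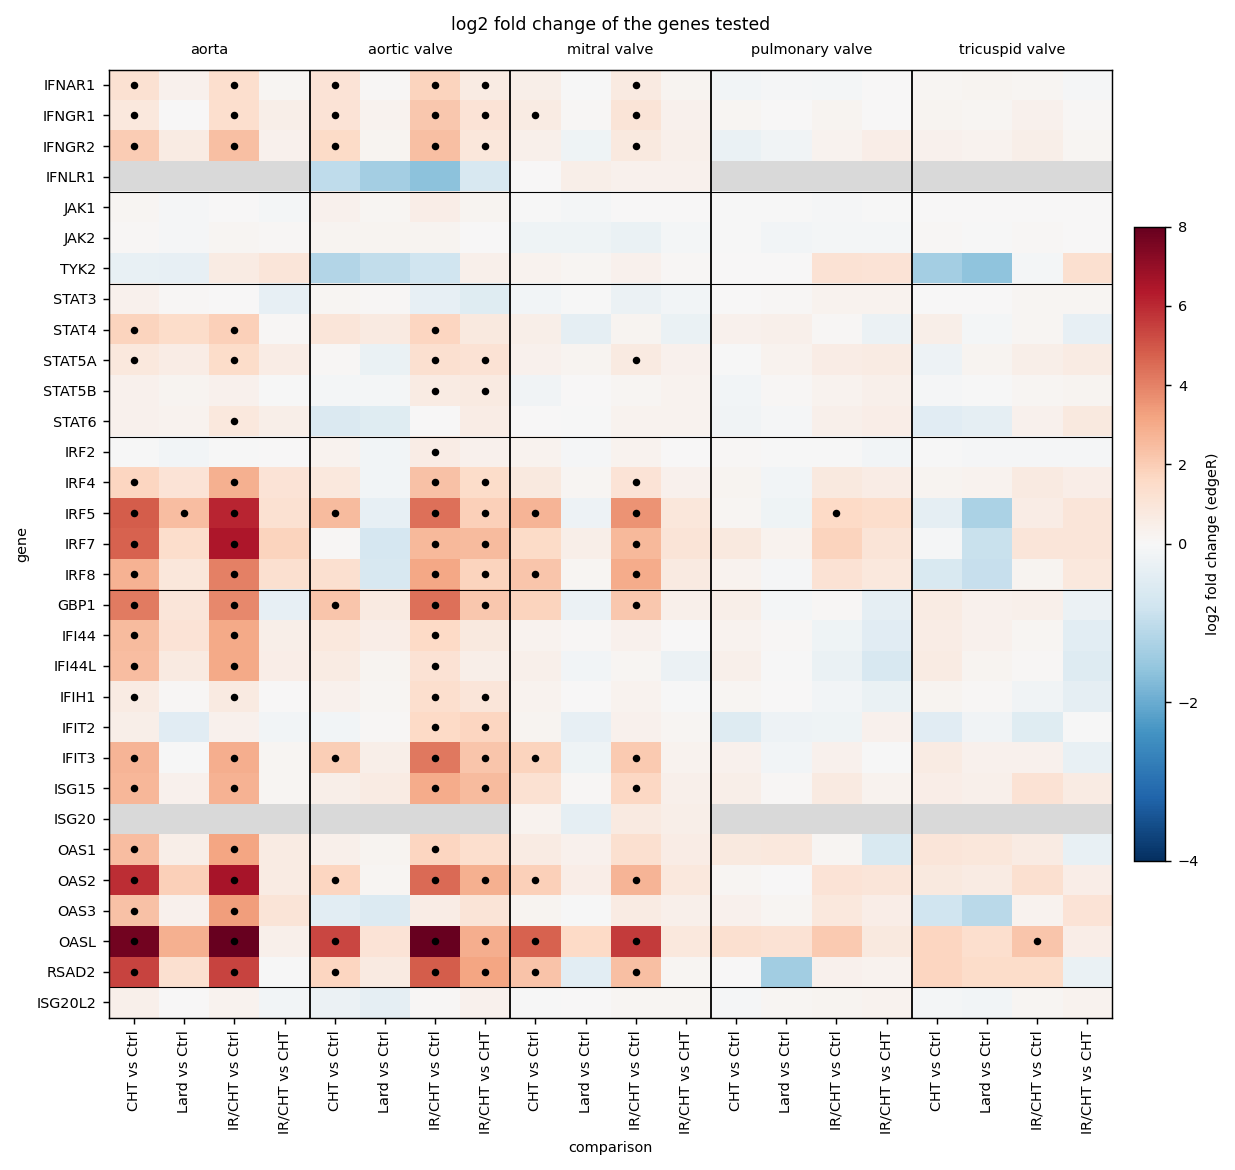
Log2 fold change (color, edgeR) of each gene tested, in rows by role, for 4 comparisons in each of 5 tissues; black dots mark genes called, and grey marks genes not tested in that tissue. Dots fill the aorta on CHT (20) and IR/CHT (21) and the aortic valve on IR/CHT (22), and the pulmonary and tricuspid valves hold 1 each.

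Few of these genes were called in the right-sided valves. The pulmonary valve had 0 of 29 genes called on CHT by edgeR and by DESeq2, beside 0.159% of all 14450 genes, with 1 at an unadjusted p under 0.05. On Lard the count was 0 by both tools, beside 0%, with 1 at an unadjusted p under 0.05. IR/CHT gave 1 call, beside 0.706% of all genes (0.581% as higher). This was IRF5, which ranged from 0.758 to 1.90 CPM on Ctrl (median 1.32), from 0.722 to 2.97 on CHT (median 1.28), from 0.608 to 1.59 on Lard (median 1.17) and from 2.12 to 7.96 on IR/CHT (median 3.14) and rose by 1.59 ± 0.33, adjusted p = 0.0153. The call was lost without IR/CHT L176, the library with 19540.2 CPM of smooth muscle markers. No call was made with the libraries of either plate alone, and DESeq2 called 5 genes. IR/CHT against CHT gave 0 calls, beside 0.0761%, and 1 by DESeq2, with 10 genes at an unadjusted p under 0.05. IFIT3, which rose in the other 3 tissues above, ranged from 9.48 to 17.5 CPM on Ctrl (median 10.9), from 9.12 to 21.1 on CHT (median 15.8), from 9.52 to 13.2 on Lard (median 11.3) and from 11 to 27.0 on IR/CHT (median 12.7) here and changed by 0.33 ± 0.20, adjusted p = 0.614 on CHT.

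The tricuspid valve had 0 of 29 genes called on CHT, beside 0.163% of all 14700 genes, and 0 on Lard, beside 0%, both also by DESeq2, with 6 and 5 at an unadjusted p under 0.05. IR/CHT gave 1 call, beside 0.231% of all genes (0.109% as higher). OASL ranged from 0.0594 to 0.642 CPM on Ctrl (median 0.180), from 0.259 to 1.72 on CHT (median 0.656), from 0.296 to 0.787 on Lard (median 0.601) and from 0.690 to 1.76 on IR/CHT (median 0.930) and rose by 2.24 ± 0.45, adjusted p = 0.0184. The count was 0 without IR/CHT L239 and 7 without Ctrl L168. IR/CHT against CHT gave 0 calls by both tools, beside 0%, with 1 gene at an unadjusted p under 0.05. With the 6 libraries closest to another tissue left out, IR/CHT against Ctrl had 1 call in the pulmonary and 2 in the tricuspid valve, and CHT and Lard had 0 in both. Macrophage markers on CHT lay at 585.9 to 919.7 (median 798.7) CPM in the pulmonary and 623.0 to 944.8 (median 744.2) in the tricuspid valve, beside 607.2 to 768.1 (median 739.3) and 595.0 to 841.0 (median 664.9) on Ctrl. On IR/CHT they lay at 294.9 to 1002 (median 914.5) and 503.5 to 1076 (median 960.3) CPM, and 3 of 13 in the pulmonary and 2 of 12 in the tricuspid valve rose against Ctrl. Their part in the calls of IRF5 and OASL was not tested.

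TYK2, a kinase of the type I receptor, was far above its median in a few libraries of these valves. It ranged from 2.46 to 58.7 CPM on Ctrl (median 3.64), from 2.11 to 13.7 on CHT (median 3.30), from 2.61 to 6.87 on Lard (median 3.62) and from 2.81 to 35.1 on IR/CHT (median 5.14) in the tricuspid valve and from 1.80 to 4.65 CPM on Ctrl (median 3.99), from 2.17 to 5.11 on CHT (median 3.44), from 2.42 to 4.48 on Lard (median 3.68) and from 3.15 to 30.0 on IR/CHT (median 3.77) in the pulmonary valve. The highest tricuspid libraries were L168 on Ctrl and L197 on IR/CHT, and the highest pulmonary library was L275 on IR/CHT, all 3 among the libraries closest to the aortic valve. They also had the highest shares of read pairs in short genes of their groups (12.1%, 12.2% and 11.3%). The group medians were 10.3%, 10.7% and 10.3%. High TYK2 was not confined to such libraries. Tricuspid IR/CHT library L276 had 23.8 CPM, was closest to its own tissue and had a short-gene share of 10.8%. Tricuspid CHT library L172 (13.7 CPM) was also closest to its own tissue, with a share of 10.4%. The part of either trait in the TYK2 levels was not tested. In the aortic valve TYK2 ranged from 17.4 to 116.0 CPM on Ctrl (median 42.5), from 5.08 to 44.1 on CHT (median 21.8), from 6.81 to 53.9 on Lard (median 17.8) and from 12.8 to 69.1 on IR/CHT (median 19.2), and no difference between treatments passed the test. In L168, IRF5 (10.8 CPM) was also far above the other 6 tricuspid Ctrl libraries, whose highest value was 2.32.

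**Figure D4:**
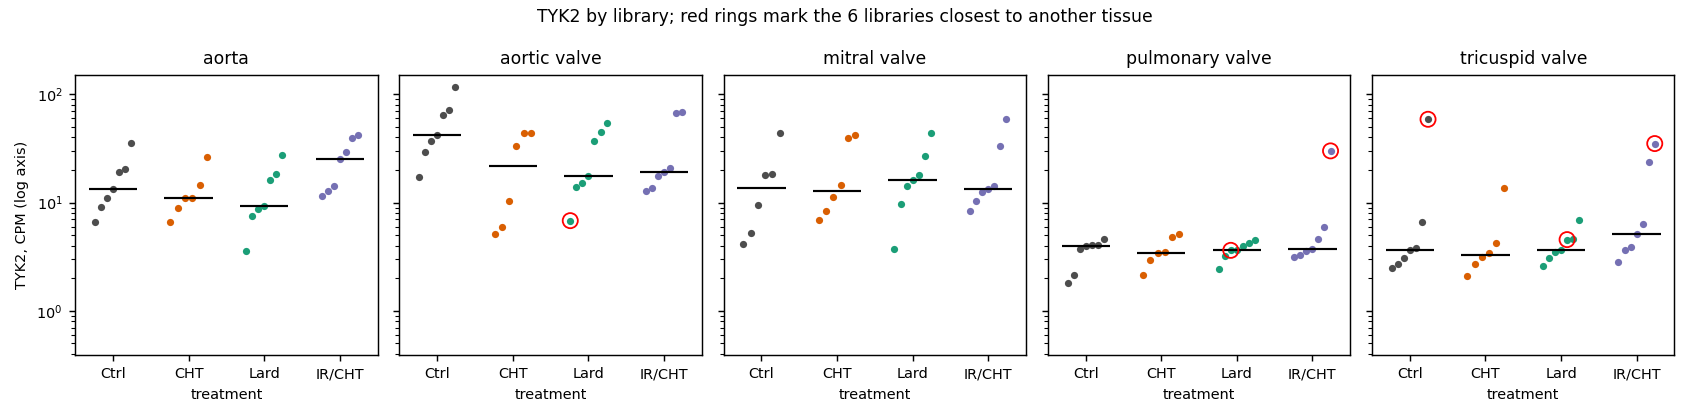
TYK2 (CPM, log axis) in each library of the 5 tissues by treatment; points are libraries, lines are medians, and red rings mark the 6 libraries whose profile was closest to another tissue. Medians of the pulmonary and tricuspid groups lie between 3.30 and 5.14 CPM, with ringed libraries at 58.7, 35.1 and 30.0 CPM. Tricuspid IR/CHT library L276, without a ring, lies at 23.8 CPM.

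Differences between tissues in the response were tested as interactions, called at an adjusted p-value under 0.05. The X-rays were aimed at the thoracic aorta and the aortic valve. In the IR/CHT interactions, tissue and radiation dose therefore cannot be told apart. On CHT, 8 of 31 genes responded less in the aortic valve than in the aorta and 0 more, beside 5.3% of all genes (4.25% as lower), whose median difference was -0.13. They were OAS2, OAS3, RSAD2, ISG15, IFI44, IFI44L, IRF7 and ISG20L2, 7 of them targets or IRFs and none a receptor chain. OAS2 had a log2 difference of -4.26 ± 0.78, adjusted p = 0.00045, and IRF7 of -4.73 ± 1.02, adjusted p = 0.00328. On IR/CHT, 2 genes responded more in the aortic valve (IFNGR1 and IRF2) and 7 less (IRF7, OAS2, OAS3, IFI44, IFI44L, STAT3 and STAT6), beside 32.8% of all genes (11.1% as higher and 21.7% as lower) and a median of -0.29. The share of these genes (29.0%) was thus below that of all genes. IFNGR1 differed by 0.68 ± 0.22, adjusted p = 0.0156, and IRF7 by -4.05 ± 0.97, adjusted p = 0.00119. A lower response here is a smaller change from Ctrl and not a lower level. IRF7 had Ctrl medians of 4.12 CPM in the aortic valve and 0.254 in the aorta, and IR/CHT medians of 33.8 and 17.1 CPM. All aorta libraries were on plate 2.

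Between the mitral and aortic valves, 0 of 31 genes differed in the response to CHT, beside 0% of all genes, and 4 had an unadjusted p under 0.05. With the rabbit as a block, since both valves came from the same animals, 2 differed (IFNGR2 and TYK2). On IR/CHT, 12 genes responded less in the mitral valve, beside 15.7% of all genes (7.26% as lower). With the block 20 responded less and 1 more, but that share of all genes belongs to the model without the block. IFIT3 had a difference of -2.09 ± 0.53, adjusted p = 0.0057, GBP1 of -2.19 ± 0.70, adjusted p = 0.0267 and IFNGR2 of -1.60 ± 0.37, adjusted p = 0.00288.

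Between the pulmonary and aortic valves, 7 of 30 genes responded less to CHT in the pulmonary valve, beside 4.39% of all genes (4.01% as lower). They were the 3 receptor chains IFNGR2, IFNAR1 and IFNGR1 and the genes OASL, IFIT3, GBP1 and IRF5. OASL differed by -4.06 ± 0.94, adjusted p = 0.00408 and IFNGR2 by -1.77 ± 0.37, adjusted p = 0.00093. On IR/CHT, 19 responded less and 2 more (STAT3 and TYK2), beside 40.2% of all genes (23.3% as higher and 16.8% as lower) and an all-gene median of 0.19. TYK2 (log2 difference 1.97) was no longer called without the 6 libraries (log2 difference 1.09), among which is pulmonary IR/CHT L275, or with the rabbit as a block (log2 difference 1.54). OASL differed by -6.14 ± 0.92, adjusted p = 4.6e-07 and GBP1 by -4.26 ± 0.52, adjusted p = 5.4e-09. Without the 6 libraries, 7 genes differed on CHT and 20 on IR/CHT. Between the tricuspid and mitral valves, IRF5 and IRF8 responded less to CHT in the tricuspid valve (-3.0 and -2.79 on the log2 scale), beside 2.23% of all genes (2.14% as lower). With the rabbit as a block, and without the 6 libraries, this count was 0. On IR/CHT, 6 responded less, beside 9.56% of all genes (6.32% as lower). With the block 13 differed, and the share of all genes in that model is not given here. OASL had a difference of -3.39 ± 0.86, adjusted p = 0.00637 and IFNGR1 of -0.76 ± 0.19, adjusted p = 0.00481.

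**Figure D5:**
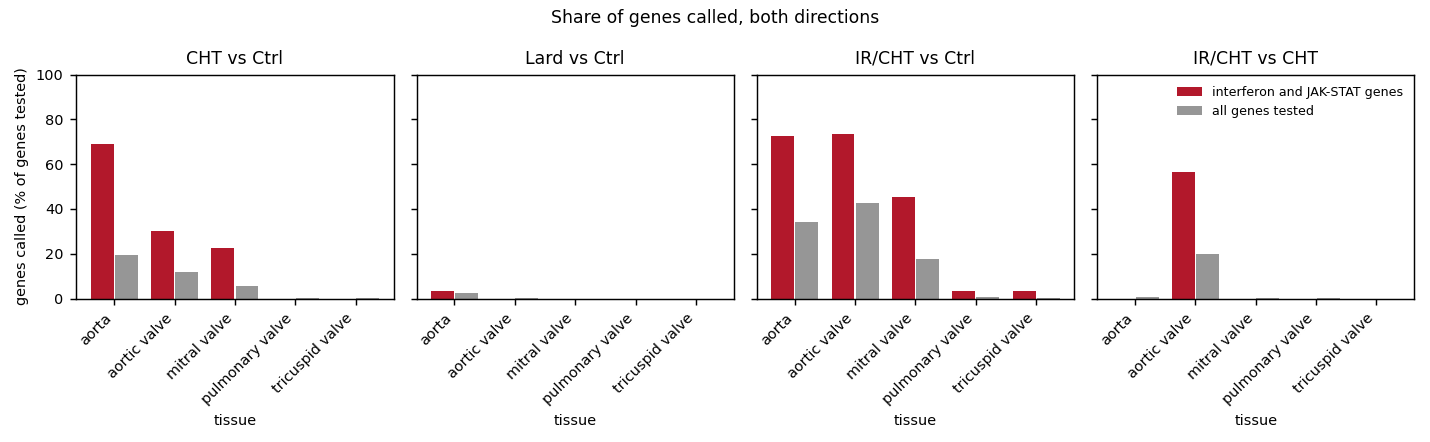
Share of genes called in either direction (% of the genes tested) in 4 comparisons and 5 tissues; red bars are the interferon and JAK-STAT genes and grey bars all genes tested. The red bars are at 69.0% and the grey at 19.4% in the aorta on CHT, and at 56.7% and 19.7% in the aortic valve for IR/CHT against CHT.

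The starting levels on Ctrl also differed between tissues, in many genes besides these. Against the aorta, 14 of 31 genes were higher in the aortic valve and 3 lower, beside 49.8% of all genes (32% as higher and 17.7% as lower), whose median difference was 0.19. Over both directions, the share of these genes called was thus close to that of all genes. IRF7 was higher by 4.27 ± 0.77, adjusted p = 8.4e-06, OAS3 by 3.16 ± 0.53, adjusted p = 2.5e-06 and IRF5 by 2.83 ± 0.59, adjusted p = 7.4e-05. IFIT2, IFIT3 and IFIH1 were lower, with log2 differences of -1.21, -1.09 and -0.59. Plate and tissue overlap here, since only plate 2 held aorta libraries. Against the aortic valve, 10 of 30 genes were higher and 9 lower in the pulmonary valve, beside 49% of all genes (20% as higher and 29.1% as lower). RSAD2 (1.89), GBP1 (1.38) and IFIT3 (1.24) were among the higher ones. TYK2 (-3.92), OAS3 (-2.61), IRF7 (-2.56) and IRF5 (-2.25) were among the lower ones. Macrophage markers on Ctrl summed to 74.1 to 318.0 (median 151.6) CPM in the aorta, 219.9 to 663.5 (median 538.8) in the aortic and 607.2 to 768.1 (median 739.3) in the pulmonary valve. The share of read pairs in short genes on Ctrl was 8.44 to 10.2%, 10.2 to 12.5% and 9.41 to 10.5% in the same order. The part of the markers and of this share in these differences was not tested. The mitral valve differed from the aortic valve in 2 of 31 genes (STAT4 and IFNGR2, both higher), a share close to the 6.17% of all genes (2.62% as higher). With the rabbit as a block, it differed in 8. The tricuspid valve differed from the mitral valve in 0 genes by edgeR, beside 6.66%, with 7 at an unadjusted p under 0.05. The count was 8 with the block and 8, all lower in the tricuspid valve, without the 6 libraries.

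Other genes of the pathway were read from 4 further lists. On CHT, 14.2% of all genes tested were called as higher in the aorta, 8.42% in the aortic and 4.98% in the mitral valve. In either direction the shares were 19.4%, 11.9% and 5.62%. Among regulators and partners of JAK-STAT signaling, 6 of 17 rose and 1 fell in the aorta on CHT, 5 of 17 rose and 1 fell in the aortic valve, and 3 of 17 rose in the mitral valve. PTPN6, the phosphatase SHP-1 of blood cells, rose by 4.58, 2.74 and 2.48 on the log2 scale, and IL10RA, the interleukin-10 receptor chain of leukocytes, by 3.80 (aorta) and 1.48 (aortic valve). Of the nucleic acid sensors and adaptors, 5 of 10 rose in the aorta, 1 of 10 in the aortic and 1 of 10 in the mitral valve, TLR8, an endosomal RNA sensor, by 4.16, 2.28 and 2.90, so that the counts of sensors in the 2 valves were close to the share of all genes. Targets of type I interferon beyond the 13 above rose in 16 of 23, 8 of 23 and 2 of 23 cases, DDX60, a helicase of antiviral defence, by 4.46, 2.59 and 2.06. Interferon-gamma targets rose in 12 of 21, 8 of 19 and 7 of 19 cases, with CD74, the invariant chain of MHC class II, at 4.27, 2.54 and 1.49, and the chemokine CXCL10 at 5.09 in the aorta. In IR/CHT against CHT, 9.9% of all genes were called as higher in the aortic valve and 19.7% in either direction. This valve had 5 of 17 regulators, 3 of 10 sensors, 11 of 23 type I targets and 9 of 19 gamma targets higher. It also had 2 regulators lower. Among the higher genes were STING1, the adaptor of cytosolic DNA sensing (1.10), SAMHD1, a nucleotide hydrolase (1.44), and CD274, the checkpoint ligand PD-L1 (1.32). None of the 4 lists had a call in the pulmonary or tricuspid valve on CHT, where 0.159% and 0.163% of all genes were called.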

How the data were processed

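Total RNA of 134 tissue samples of 27 rabbits was sequenced, 1 library per sample (SMARTer stranded Pico kit). The values are read pair counts per gene that the authors deposited as whole numbers without normalization, in 1 table for each of 2 plates, made with bcl2fastq 2.20 (per the submitters' processing notes), the nf-core rnaseq pipeline, the genome OryCun2.0 and Ensembl annotation. Every column was mapped to a sample label, and all counts were used as deposited.

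In R 4.3.3 with edgeR 4.0.16, genes were filtered by filterByExpr, libraries scaled by TMM, and 1 robust quasi-likelihood model of the 4 treatments was fitted per tissue, without covariates, over all genes. Genes with a fold change over 1.5 and a two-sided p-value under 0.05, adjusted by the Benjamini-Hochberg method, were called. Responses of 2 tissues were compared as interactions, called at an adjusted p-value under 0.05, in 1 model of both tissues. Levels are CPM on TMM-scaled library sizes. Fold changes carry standard errors derived from the test, as the absolute log2 fold change divided by the square root of the quasi-likelihood F statistic. The scripts were tested on simulated data.

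Alternatives were DESeq2 1.42.0, DESeq2 size factors in edgeR, no filter, only the 2 groups, the plate as a covariate, each plate alone, the rabbit as a block, and leaving out each library. Shares of all genes are those of the main models. Counts under an alternative therefore have no share of their own beside them, and a higher count there does not single out these genes. Tissues were paired by the rabbit number in the column names. With group means removed, profiles of the same rabbit had a median correlation of 0.439 between mitral and aortic valve (26 of 26 over 0.1), 0.279 between tricuspid and mitral valve (19 of 26), 0.201 between aortic valve and aorta (20 of 27) and 0.175 between pulmonary and aortic valve (18 of 27).

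The genes, and the lists of other pathway genes and cell markers, were chosen with earlier results of these data known. Any of the 35 genes could be named, and 2 further genes that met the rule are not reported here. Of the other lists, genes among the 3 with the smallest p-values in a tissue were named, and 6 libraries were left out in an alternative chosen after seeing the data. Each library is 1 tissue of 1 animal.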

Additional observations from a re-analysis of the deposited data

Results flagged for a closer look

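Among the 30 combinations of gene and tissue whose levels are given by treatment, 120 groups of 6 or 7 libraries were examined, and in 25 the highest or lowest library stood apart by Dixon's criterion. For normally distributed values, chance alone gives about 1 in 20 groups. The criterion was applied to CPM without a log, where high values stand apart more easily, so the count cannot show an excess. The genes are also not independent. In brackets are the library, its level and that of the next library. In the aorta these were IFNAR1 on CHT (L572, 149.0 CPM and 94.2), IRF5 on Lard (L578, 17.7 CPM and 6.20), IRF7 on Lard (L578, 2.45 CPM and 1.01), OASL on Ctrl (L551, 0.32 CPM and 0.127), OAS2 on Lard (L578, 3.46 CPM and 1.53), RSAD2 on CHT (L559, 36.7 CPM and 10.3) and IFIT3 on CHT (L559, 208.7 CPM and 86.8). In the aortic valve they were IFNGR2 on IR/CHT (L194, 23.7 CPM and 59.1), IRF5 on Lard (L269, 12.1 CPM and 5.69), IRF7 on CHT (L151, 18.2 CPM and 5.16), OASL on Ctrl (L261, 0.473 CPM and 0.165) and IFIT3 on CHT (L169, 40.5 CPM and 19.4), of which IFNGR2 was a low value. The mitral valve had IFIT3 on CHT (L229, 86.7 CPM and 35.1), RSAD2 on CHT (L229, 15.0 CPM and 2.81), RSAD2 on IR/CHT (L548, 11 CPM and 5.39), GBP1 on CHT (L229, 43.6 CPM and 9.72) and GBP1 on IR/CHT (L548, 52.0 CPM and 23.4). In the pulmonary valve they were TYK2 on IR/CHT (L275, 30.0 CPM and 5.90), IFIT3 on Ctrl (L184, 17.5 CPM and 12.1) and IFIT3 on IR/CHT (L176, 27.0 CPM and 14.6), and in the tricuspid valve TYK2 on Ctrl (L168, 58.7 CPM and 6.59), TYK2 on CHT (L172, 13.7 CPM and 4.25), IRF5 on Ctrl (L168, 10.8 CPM and 2.32), IRF5 on Lard (L193, 2.31 CPM and 1.37) and OASL on Ctrl (L201, 0.642 CPM and 0.246). L275 and L168 are among the libraries closest to another tissue. L229 was apart in 3 targets, L578 in 3 genes on Lard and L559, L548 and L168 in 2 each. No cause was tested.

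The response to a treatment differed between tissues, by the interaction test at an adjusted p-value under 0.05, in 8 of 31 genes on CHT (beside 5.3% of all genes) and 9 on IR/CHT (beside 32.8%) between aortic valve and aorta. Between mitral and aortic valve, 12 of 31 differed on IR/CHT (beside 15.7%). Between pulmonary and aortic valve, 7 of 30 differed on CHT (beside 4.39%) and 21 on IR/CHT (beside 40.2%), and between tricuspid and mitral valve 2 of 31 on CHT (beside 2.23%) and 6 on IR/CHT (beside 9.56%). The share of 9 of 31 genes (29.0%) was below that of all genes. In brackets are the log2 differences, the effect in the valve named before minus that in the tissue named after. For the aortic valve minus the aorta they were OAS2 (-4.26), IRF7 (-4.73), RSAD2 (-3.70), ISG15 (-2.26), IFI44L (-1.82), IFI44 (-1.75), OAS3 (-2.81) and ISG20L2 (-0.72) on CHT, and IFNGR1 (0.68), IRF2 (0.49), IRF7 (-4.05) and OAS3 (-2.89) on IR/CHT. The mitral minus the aortic valve gave IFNGR1 (-1.06), IFNGR2 (-1.60), IFIT3 (-2.09) and GBP1 (-2.19) on IR/CHT. The pulmonary minus the aortic valve gave IFNGR2 (-1.77), IFNAR1 (-1.22), OASL (-4.06), IFNGR1 (-0.89), IFIT3 (-1.63), IRF5 (-2.36) and GBP1 (-1.77) on CHT, and IFIT3 (-3.82), GBP1 (-4.26), OASL (-6.14), STAT3 (0.67) and TYK2 (1.97) on IR/CHT. The tricuspid minus the mitral valve gave IRF5 (-3.0) and IRF8 (-2.79) on CHT, and IFNGR1 (-0.76), OASL (-3.39) and IFIT3 (-1.73) on IR/CHT. All-gene medians of these differences were -0.13 and -0.29 for the aortic valve minus the aorta, 0.19 for the pulmonary minus the aortic valve on IR/CHT, and between -0.04 and 0.07 otherwise. Comparisons with Ctrl share the Ctrl libraries of a tissue. In the differences on IR/CHT, tissue and radiation dose cannot be told apart.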

How the results depend on the processing

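Counts of called genes on CHT and IR/CHT in the aorta and aortic valve stayed within 1.5 times their value under DESeq2, other size factors, no filter on low counts, a model of only the 2 groups, the plate as a covariate and the omission of any single library, and no called gene changed direction under any alternative. The exceptions were CHT in the aortic valve with plate 1 libraries alone (5), IR/CHT against CHT in the aorta by DESeq2 (1) and, with single libraries left out, 0 to 1 (1 without CHT L572 or IR/CHT L579). Lard against Ctrl in the aorta gave 0 without the filter, 0 with only the 2 groups and 5 by DESeq2. Leaving out single libraries gave 0 to 3, with 0 without Ctrl L553, L569, L570 or L571 or Lard L562, L575 or L578, 2 without CHT L573, Ctrl L551 or Lard L564, and 3 without Lard L563. In the mitral valve, IR/CHT against Ctrl gave 7 with plate 2 libraries alone, and CHT against Ctrl 6 to 11 with single libraries left out (11 without CHT L245). In the pulmonary valve, IR/CHT against Ctrl gave 5 by DESeq2, 0 with plate 1 alone, 0 with plate 2 alone and 0 to 2 with single libraries left out (0 without IR/CHT L176, 2 without IR/CHT L180, IR/CHT L196, IR/CHT L259 or IR/CHT L549), and IR/CHT against CHT 1 by DESeq2 and 0 to 1 with single libraries left out (1 without Lard L250). In the tricuspid valve, CHT against Ctrl gave 0 to 1 (1 without Ctrl L201), and IR/CHT against Ctrl 0 with only the 2 groups, 3 with plate 1 alone, 0 with plate 2 alone, 2 without the 6 libraries closest to another tissue (added once the data had been seen) and 0 to 7 with single libraries left out (0 without IR/CHT L239, 7 without Ctrl L168). The cause of these shifts was not tested.

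With the rabbit as a replicate block, the mitral against the aortic valve gave 2 genes on CHT, 21 on IR/CHT and 8 on Ctrl (Ctrl also 1 without the filter and 5 by DESeq2), and the tricuspid against the mitral valve 0 on CHT, 13 on IR/CHT and 8 on Ctrl. The tricuspid against the mitral valve gave 0 on CHT and 8 on Ctrl without the 6 libraries. The block moved no other count by over 1.5 times. At 1 CPM by the unscaled total of the smallest library, counting alone gives an SD of 27.2%. Genes with low Ctrl levels (OASL, RSAD2, IRF7 in the aorta) therefore have uncertain fold changes.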
